A study of Mus musculus with 6 samples.

Results

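The genes described here encode glycosyltransferases and carbohydrate sulfotransferases of the Golgi, the enzymes that build and sulfate the sugar chains of glycoproteins, glycolipids and proteoglycans. They were chosen by symbol, as every row of the deposited table whose gene name begins with B3galt, B3gnt, B3gat, B4galt, B4galnt, Chst, Fut, Galnt, Gcnt, Mgat, St3gal, St6gal or St8sia. This gave 109 of 55487 rows, under 108 symbols, since St6galnac2 has a pair of rows. The antisense RNAs Galnt6os and St8sia3os match the rule and are counted. RNA-seq was done on mouse bone marrow cells labelled as long-term haematopoietic stem cells, all of the genotype written Mmrn1-GFP type, in 3 Mmrn1-low and 3 Mmrn1-high libraries. Mmrn1 encodes multimerin, known from platelets and endothelium, and GFP is a fluorescent protein. The labels name no treatment, strain, age or surface gate, and do not say whether replicates were separate mice or sorts. The p-values therefore speak only of the variation among these libraries, which could be technical.

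Glycans are built in order along the secretory pathway. N-linked chains are trimmed and then branched by Mgat enzymes, O-linked chains are started by Galnt enzymes, and both are extended with galactose and N-acetylglucosamine and capped with sialic acid, fucose or sulfate. Caps made by Fut7 and Fut4 form the selectin ligands with which blood cells roll on vessel walls. Chondroitin sulfate, a glycosaminoglycan of leukocyte granules, is sulfated by Chst enzymes, and gangliosides, sialylated glycolipids, are built from lactosylceramide by a short series of transferases.

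The libraries held 11595104 to 30909990 counts. Levels are given as CPM (counts brought to 1 common total) after adjustment by TMM factors, which correct for library composition. Unless said otherwise, values are those of Mmrn1-low replicates 1 to 3 against Mmrn1-high replicates 1 to 3, and means carry the SD (n = 3). Mmrn1 was at 5.61 to 5.82 CPM in Mmrn1-low and 8.82 to 11.5 CPM in Mmrn1-high libraries. Of 8 stem cell markers, 7 were higher in Mmrn1-high cells and 1 was not called, with sums of 71.1 to 81.5 against 185 to 225 CPM. Markers of other marrow cells differed as well. Beside these counts, 30.7% of all genes tested were called higher and 30.5% lower, by the test described below. All 6 granulocyte progenitor markers were lower (sums of 23129 to 24378 against 3409 to 3486 CPM), as were all 6 tissue macrophage markers (131.9 to 132.2 against 9.96 to 12.1 CPM). All 6 markers of maturing neutrophils were higher (1246 to 1315 against 2491 to 2573 CPM). The plasma cell, erythroid, endothelial and stromal lists had markers called in both directions. The megakaryocyte, B cell and T and natural killer cell lists had none called lower. Single genes carried several of these sums. The plasma cell list (1 higher, 3 lower and 1 not called of 5 tested) summed to 373 to 383 against 132 to 173 CPM. Prg2 made up 254 and 84.8 CPM of these sums on average. Whether Prg2 came from plasma cells here was not tested. Erythroid markers (1 higher, 4 lower and 1 not called of 6 tested) summed to 699 to 737 against 413 to 417 CPM, of which Tfrc made up 509 and 231 CPM on average. Megakaryocyte markers (2 higher, 0 lower and 2 not called of 4 tested) summed to 75.8 to 78.1 against 193 to 198 CPM, of which Itga2b made up 63.2 and 177 CPM on average. B cell markers (4 higher, 0 lower and 1 not called of 5 tested) summed to 30.5 to 32.3 against 38.9 to 41.8 CPM. T and natural killer cell markers (3 higher, 0 lower and 0 not called of 3 tested) summed to 13.1 to 14.8 against 44.3 to 47.6 CPM, of which Lck made up 10.2 and 37.5 CPM on average, and Cd3e, Cd3g and Cd3d had too few counts to test. Endothelial markers (3 higher, 1 lower and 1 not called of 5 tested) summed to 129 to 135 against 191 to 205 CPM, of which Pecam1 made up 81.2 and 147 CPM on average, while Flt1 was lower (−3.71 ± 0.23 SE). Stromal markers (1 higher, 3 lower and 0 not called of 4 tested) summed to 51.0 to 53.3 against 130.3 to 139 CPM, of which Pdgfrb made up 44.1 and 131 CPM on average, while Cxcl12, Col1a1 and Col1a2 were lower. No marker was at 0 in all libraries of a group. Their part in the results below was not tested, and in bulk samples fewer cells of a type and less RNA per cell cannot be told apart.

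Of the 109 rows, 65 passed the filter on low counts and were tested, 24 had too few counts and 20 had none in any library. The largest total among rows not tested was 75 counts, for Chst1. The test was edgeR's quasi-likelihood F test over 15419 genes, with a gene called where its Benjamini-Hochberg adjusted p was under 0.05. Higher and lower refer to Mmrn1-high relative to Mmrn1-low cells. Of the 65, 29 were higher (44.6%), 17 lower (26.2%) and 19 not called. Over all genes tested, 30.7% were higher and 30.5% lower, so that 61.2% were called, against 70.8% of the 65. Their median log2 fold change was 0.28, against 0.01 over all genes tested. The split depends on the scaling: with library size alone, which moves the median of all genes by 0.148, 35 were higher and 13 lower, and of all genes 6201 and 3193. The groups did not overlap in CPM for 46 of the 65, against 67.8% of all genes tested. Called members with a log2 fold change of at least 1 numbered 11, and those at −1 or less 6, against 11.3% and 4.9% of all genes tested.

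**Figure D1:**
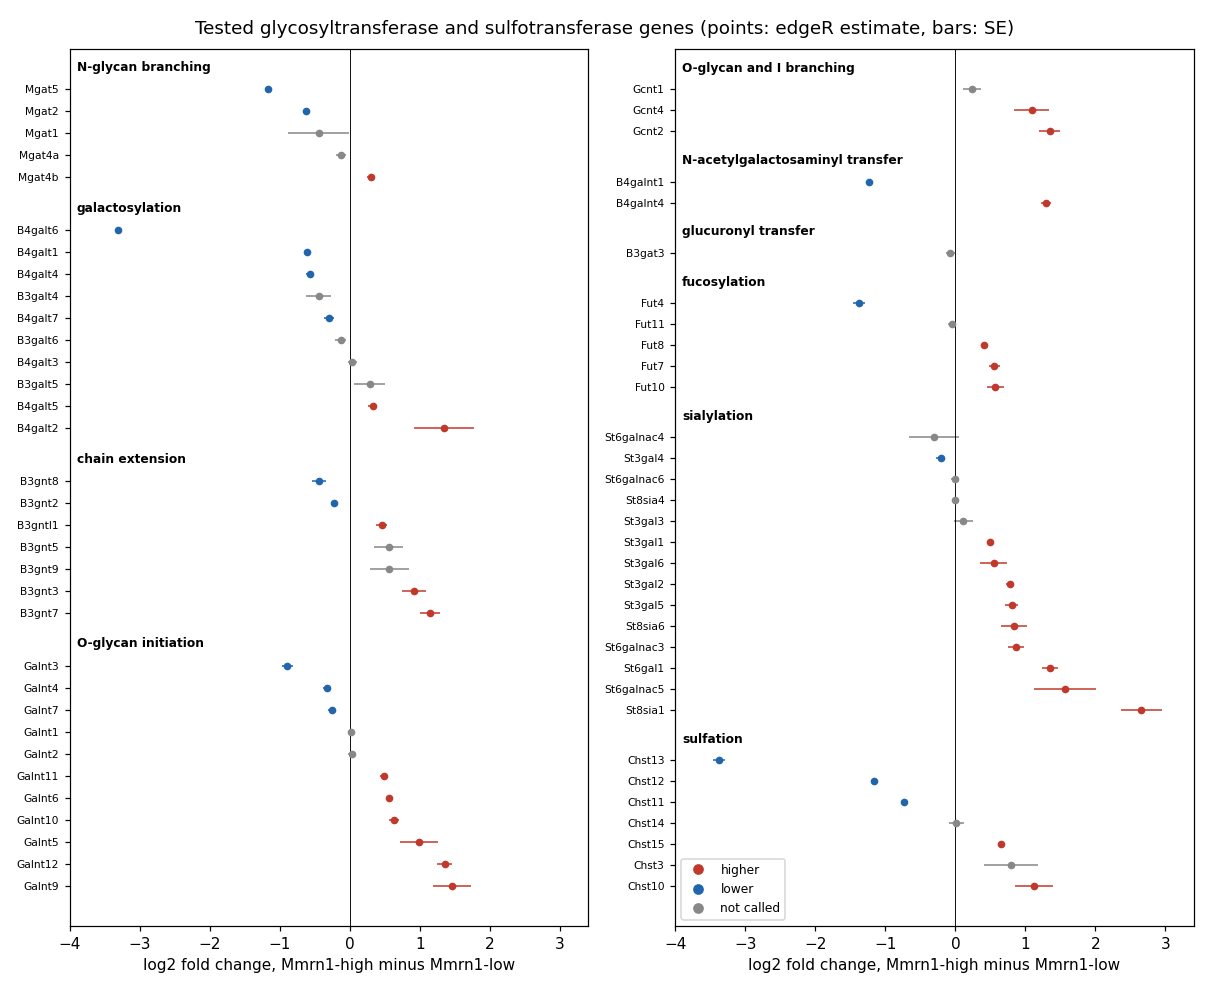
Log2 fold change (horizontal axis, Mmrn1-high minus Mmrn1-low) of the 65 tested genes by role group, with bars for the standard error (SE) from edgeR; red is higher, blue lower and grey not called. Chst13 (−3.38) and B4galt6 (−3.30) lie farthest to the left and St8sia1 (2.66) farthest to the right.

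Abundant members were called lower more often than sparse ones. Among the 36 tested members at or above the median level of all genes tested, 24.1 CPM, 14 were lower and 11 higher, and among the 29 below it 3 were lower and 18 higher. All genes tested split the same way, with 44.4% lower and 23.8% higher at or above that level and 16.6% lower and 37.7% higher below it. To compare genes, CPM were divided by merged exon length (CPM per kb). Summed over the 109 rows this level was 1004 ± 13.6 in Mmrn1-low and 752 ± 10.9 CPM per kb in Mmrn1-high libraries (SD, n = 3), 1.34 times as high in Mmrn1-low. Without B4galt6 and B4galnt1 the sums were 766 ± 9.68 and 679 ± 10.2 CPM per kb. In Mmrn1-low cells the order of levels began with B4galnt1 (149.7 ± 7.37 CPM per kb), B4galt6 (89.0 ± 1.08), Mgat2 (79.7 ± 1.35), B4galt1 (62.4 ± 1.07) and Chst12 (60.9 ± 3.20). In Mmrn1-high cells it began with B4galnt1 (64.0 ± 1.37 CPM per kb), Galnt6 (52.9 ± 0.483), Mgat2 (51.5 ± 0.784), Galnt2 (41.5 ± 1.76) and Fut8 (41.3 ± 0.774). The neighbours B4galt1 and Chst12 in the first order, and Galnt2 and Fut8 in the second, did not differ beyond their spread.

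**Figure D2:**
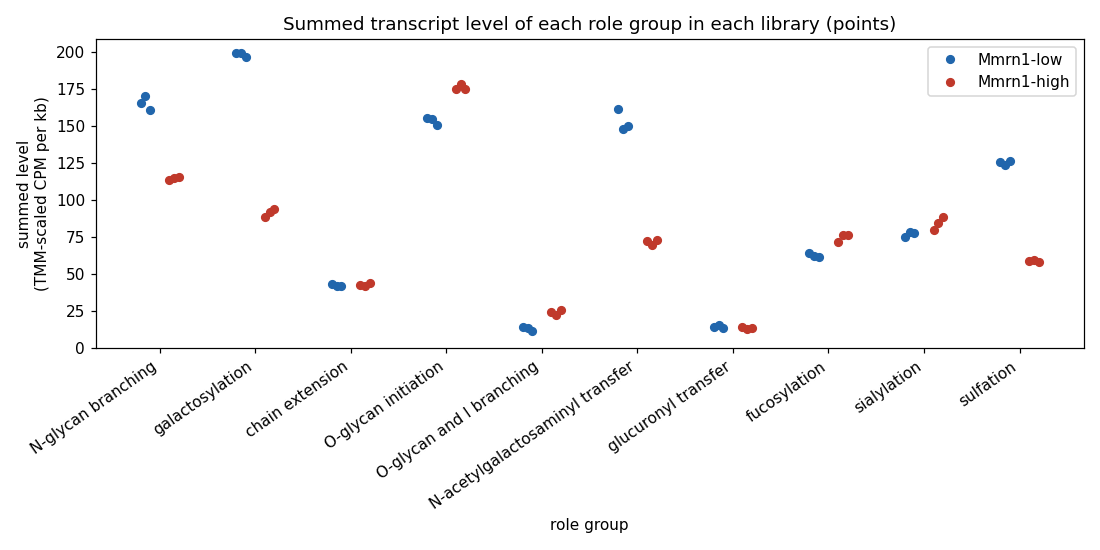
Summed level of each role group (vertical axis, TMM-scaled CPM per kb of merged exons, all rows of the group) in each library (points; blue Mmrn1-low, red Mmrn1-high). Galactosylation is at 198 against 91.2, sulfation at 125 against 58.7 and O-glycan and I branching at 13.4 against 24.1 (group means).

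The chondroitin 4-O-sulfotransferases Chst11, Chst12 and Chst13, which place sulfate on the N-acetylgalactosamine of chondroitin, were all lower. Among the sulfotransferases, 7 of 14 rows were tested, with 2 higher, 3 lower and 2 not called (median log2 fold change 0.01). Chst13 (GRCm38 chromosome 6, 90308349 to 90325185) was at 46.8, 49.4 and 50.9 CPM against 4.90, 4.38 and 5.02 CPM, 10.4-fold apart. Every Mmrn1-low library lay above every Mmrn1-high library, and the log2 fold change of Chst13 (−3.38 ± 0.08 SE, edgeR adjusted p = 2.91e-08) ranked 52 from the lowest of the genes tested. Chst12 (chromosome 5, 140505550 to 140525724), the most abundant of the 3 per length, was at 152, 137 and 143 CPM against 65.9, 63.2 and 64.0 CPM (−1.16 ± 0.05 SE, edgeR adjusted p = 3.35e-07). Chst11 (chromosome 10, 82985498 to 83195900) was at 119, 127 and 127 CPM against 73.5, 77.0 and 73.4 CPM (−0.73 ± 0.04 SE, edgeR adjusted p = 2.19e-06). Neither overlapped between groups. Together the 3 genes made up 113 ± 1.96 CPM per kb in Mmrn1-low and 43.6 ± 0.439 CPM per kb in Mmrn1-high libraries (SD, n = 3), and the share of Chst13 in that sum was 26.3% ± 1.27 and 6.61% ± 0.454. The granulocyte progenitor markers were lower too (median log2 fold change −2.68), and their part in this result was not tested.

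The other sulfotransferases did not share this direction. Chst15, which adds a further sulfate to units already sulfated by these enzymes, was at 33.8 ± 1.10 and 53.3 ± 1.78 CPM and rose (0.66 ± 0.05 SE, edgeR adjusted p = 1.58e-05). Chst10, which makes the HNK epitope, was higher at a low level, 1.64 ± 0.660 against 3.74 ± 0.463 CPM (1.12 ± 0.27 SE, edgeR adjusted p = 0.00659). Chst14, which acts on dermatan, was not called (0.01 ± 0.11 SE), nor was Chst3, a chondroitin 6-O-sulfotransferase (0.79 ± 0.39 SE). Chst2 (36 counts in all) and Chst4 (0 counts), which sulfate selectin ligands of lymph node vessels, were not tested.

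The promoters of the 3 chondroitin 4-O-sulfotransferase genes are shown because all of them were lower. Each window holds the 190 bases from 250 to 61 bases before the RefSeq start (GRCm38.p6), read 5′ to 3′ on the strand of the gene. It ends before the annotated span of that gene, and overlap with other genes was not checked. Capitals mark the GC box (GGGCGG) and the CCAAT box (CCAAT), searched on both strands, with no overlap between matches.
Chst11 (+ strand, chr10:82985247-82985436): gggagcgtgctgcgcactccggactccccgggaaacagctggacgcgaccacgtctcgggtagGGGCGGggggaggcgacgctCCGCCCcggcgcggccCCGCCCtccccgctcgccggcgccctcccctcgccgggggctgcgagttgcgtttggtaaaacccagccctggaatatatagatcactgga
Chst12 (+ strand, chr5:140505359-140505548): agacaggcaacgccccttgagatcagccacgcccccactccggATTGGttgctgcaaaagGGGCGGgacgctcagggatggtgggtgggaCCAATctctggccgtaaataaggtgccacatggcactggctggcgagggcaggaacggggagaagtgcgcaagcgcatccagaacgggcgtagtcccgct
Chst13 (− strand, chr6:90325246-90325435): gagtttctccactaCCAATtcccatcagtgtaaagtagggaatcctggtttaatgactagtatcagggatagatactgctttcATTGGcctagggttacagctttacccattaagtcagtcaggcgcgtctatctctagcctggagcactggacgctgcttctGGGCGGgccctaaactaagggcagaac
The GC box was found 3 times before Chst11 and 1 time each before Chst12 and Chst13, and the CCAAT box 0, 2 and 2 times. Of 32851 RefSeq windows of this length, 22.8% held a GC box and 26.7% a CCAAT box. The TATA box (TATAAA), the ETS core (CGGAAG), the RUNX core (TGTGGT) and a form of the GATA site (AGATAA) were found in none of the 3. Of all windows, 8.73%, 8.54%, 11% and 8.06% hold them. Only these letters were searched for, so other forms of these motifs, GATA sites among them, may be present. G and C made up 72.1% (Chst11), 63.2% (Chst12) and 48.9% (Chst13), with a median of 51.6% over all windows. A match describes letters only, and binding was not measured.

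In glycolipid synthesis, B4galt6 and B4galnt1 fell while the sialyltransferases that make GM3 and GD3 rose. B4galt6, a lactosylceramide synthase (chromosome 18, 20684599 to 20746404), was at 511, 523 and 517 CPM against 49.3, 52.0 and 55.7 CPM. Libraries of a group lay close together and the groups were 9.87-fold apart, and the log2 fold change of B4galt6 (−3.30 ± 0.05 SE, edgeR adjusted p = 3.69e-09) ranked 55 from the lowest. B4galt5, the other lactosylceramide synthase, was at 30.1, 33.9 and 32.5 CPM against 38.2, 40.4 and 42.1 CPM and rose (0.32 ± 0.07 SE, edgeR adjusted p = 0.00314). Per length, B4galt6 made up 50.1% ± 0.560 of the summed level of B4galt1 to B4galt6 in Mmrn1-low and 12.1% ± 0.592 in Mmrn1-high libraries, where B4galt5 made up 12.6% ± 0.427.

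B4galnt1, the GM2 and GD2 synthase (chromosome 10, 127165225 to 127172330), was at 546, 499 and 506 CPM against 223, 216 and 225 CPM, without overlap (−1.23 ± 0.04 SE, edgeR adjusted p = 1.23e-07). St3gal5, the GM3 synthase, was at 7.68, 6.71 and 6.72 CPM against 12.2, 12.6 and 11.99 CPM, without overlap and in the other direction (0.80 ± 0.09 SE, edgeR adjusted p = 1.40e-04). St8sia1, the GD3 synthase (chromosome 6, 142821545 to 142964452), was at 0.254, 0.443 and 0.732 CPM against 2.86, 3.45 and 3.55 CPM, so the Mmrn1-low libraries lay near the limit of counting. The log2 fold change of St8sia1 (2.66 ± 0.30 SE, edgeR adjusted p = 1.07e-04) ranked 44 from the highest. It shares exon bases with Gm7457, which had 10.8% as many counts. B3galt4, the GM1 synthase, was at 7.25 ± 0.975 and 5.31 ± 1.22 CPM and was not called (−0.44 ± 0.18 SE, edgeR adjusted p = 0.0592). In Mmrn1-high libraries St3gal5 still made up 5.17% ± 0.259 of the summed level per length of these 6 genes, against 70.5% ± 1.29 for B4galnt1.

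The promoters of St3gal5 and St8sia1, ganglioside sialyltransferases that rose, are shown beside those of the sulfotransferases, with the same window and capitals. That of St6galnac5, which was higher as well, is not shown.
St3gal5 (+ strand, chr6:72097358-72097547): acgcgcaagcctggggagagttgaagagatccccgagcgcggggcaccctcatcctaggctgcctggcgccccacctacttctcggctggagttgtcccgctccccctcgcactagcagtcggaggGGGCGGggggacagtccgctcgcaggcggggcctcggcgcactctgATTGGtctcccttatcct
St8sia1 (− strand, chr6:142964513-142964702): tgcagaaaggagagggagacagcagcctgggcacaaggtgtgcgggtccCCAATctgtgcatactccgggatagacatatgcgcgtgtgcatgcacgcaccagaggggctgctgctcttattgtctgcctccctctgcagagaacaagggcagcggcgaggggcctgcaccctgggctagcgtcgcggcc
The GC box was found 1 time before St3gal5 and 0 times before St8sia1, and the CCAAT box 1 time before each. The letters searched for the other motifs were in neither window, and G and C made up 68.4% and 63.2%.

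**Figure D3:**
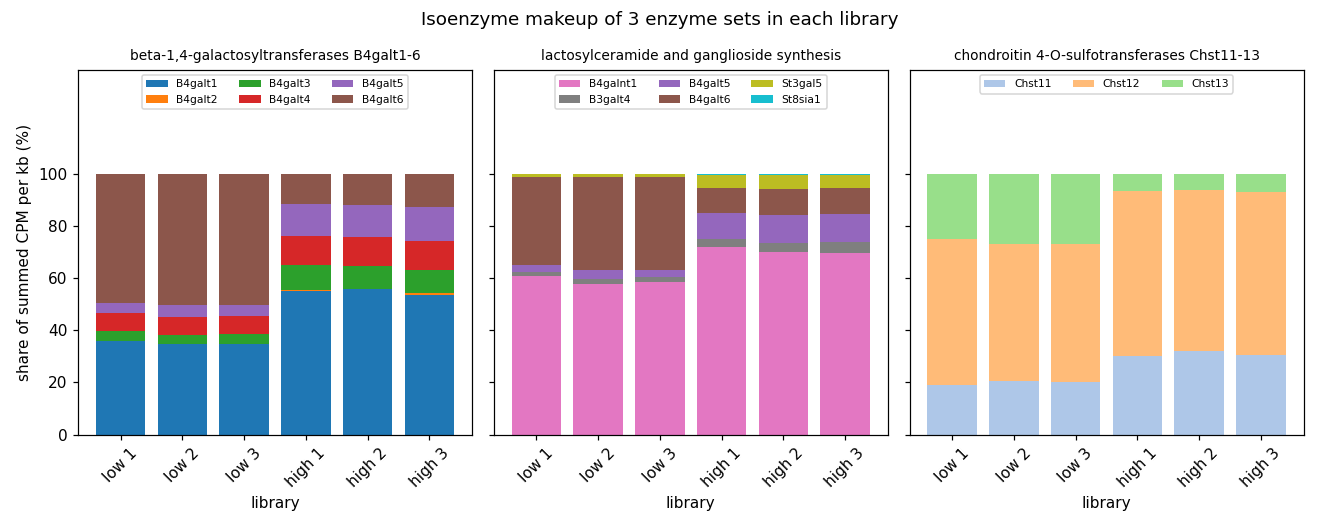
Share of each gene in the summed level per length (vertical axis, percent of CPM per kb) in each library (bars), for the B4galt genes, for 6 genes of glycolipid synthesis and for the chondroitin 4-O-sulfotransferases. B4galt6 takes 50.1% of the first set in Mmrn1-low and 12.1% in Mmrn1-high libraries, and Chst13 26.3% and 6.61% of the last (group means).

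Most called sialyltransferases were higher. In this group, 14 of 22 rows were tested, with 9 higher, 1 lower and 4 not called (median log2 fold change 0.67). That is 64.3% higher and 7.14% lower, against 30.7% and 30.5% of all genes tested. Of those higher, St3gal5, St3gal6, St6gal1, St6galnac3, St6galnac5, St8sia1 and St8sia6 lay below 24.1 CPM on average. Below that level 37.7% of all genes tested were higher and 16.6% lower. St6gal1, which caps N-glycans with sialic acid (chromosome 16, 23224740 to 23360350), was at 7.87, 5.98 and 6.41 CPM against 18.5, 16.8 and 16.3 CPM, 2.55-fold higher in Mmrn1-high cells (1.35 ± 0.12 SE, edgeR adjusted p = 2.55e-05). St3gal1 (0.49 ± 0.04 SE) and St3gal2 (0.78 ± 0.06 SE), which sialylate the galactose of O-glycans, rose. St6galnac3 was at 4.97 ± 0.521 against 9.19 ± 0.403 CPM (0.87 ± 0.11 SE) and St8sia6 at 3.69 ± 0.359 against 6.74 ± 1.60 CPM (0.84 ± 0.18 SE), and both add sialic acid to sialylated chains. St6galnac5, a ganglioside sialyltransferase, was higher at 0.0635, 0.369 and 0.348 CPM against 0.735, 0.832 and 0.871 CPM (1.56 ± 0.44 SE, edgeR adjusted p = 0.0146). St6galnac5 had 65 counts in all and shares exon bases with Pigk, which had 7477, so its value is uncertain. Its call was lost in DESeq2 (adjusted p = 0.0733), and over the alternatives the adjusted p of St6galnac5 ranged from 0.0095 to 0.0733.

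St3gal4, an enzyme of selectin ligands and the sialyltransferase with the highest level per length in both groups, was the only one called lower. It was at 76.1, 74.2 and 67.6 CPM against 62.4, 58.8 and 67.3 CPM, the groups nearly touching (−0.21 ± 0.07 SE, edgeR adjusted p = 0.0247). It shares exon bases with 4930581F22Rik, which had 14.3% as many counts. The call of St3gal4 was lost with library size alone, with the 5 CPM filter, with FPKM, with the replicate block and without 1 of the libraries Mmrn1-low 1, Mmrn1-low 2, Mmrn1-high 1 and Mmrn1-high 2 (edgeR adjusted p 0.0707 to 0.114). St8sia4, the polysialyltransferase of haematopoietic cells, was at 113, 113 and 114 CPM against 113, 112 and 114 CPM and was not called (−0.01 ± 0.03 SE), but with library size alone St8sia4 was higher (0.14, edgeR adjusted p = 0.00411, where all alternatives ranged from 0.00411 to 0.981). St6galnac4 varied within groups, at 61.7, 100.3 and 97.5 CPM against 42.4, 82.9 and 83.5 CPM, and was not called (−0.31 ± 0.36 SE).

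Fut4 and Fut7 moved in opposite directions. Among fucosyltransferases, 5 of 8 rows were tested, with 3 higher, 1 lower and 1 not called (median log2 fold change 0.42). Fut4, which makes Lewis x on myeloid cells (chromosome 9, 14748320 to 14752393), was at 33.9, 30.5 and 31.6 CPM against 11.4, 12.3 and 13.3 CPM, 2.60-fold higher in Mmrn1-low cells (−1.38 ± 0.08 SE, edgeR adjusted p = 2.79e-06). Fut7, which makes sialyl Lewis x (chromosome 2, 25423267 to 25426374), was at 33.6, 33.3 and 28.7 CPM against 43.5, 47.4 and 48.8 CPM (0.55 ± 0.08 SE, edgeR adjusted p = 4.26e-04). Neither overlapped between groups. Their summed level per length was 21.4 ± 1.35 and 22.8 ± 1.39 CPM per kb, and the share of Fut4 in it 36.8% ± 2.11 and 13.3% ± 0.328. Fut8, which adds the core fucose of N-glycans, was at 245 ± 5.86 and 326 ± 6.12 CPM and rose (0.42 ± 0.03 SE), and Fut10 was higher (0.57 ± 0.12 SE).

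The other enzymes of selectin ligand synthesis differed in both directions. Gcnt1, which makes the branched O-glycan that carries the ligand, was at 40.6, 45.7 and 38.3 CPM against 54.0, 40.2 and 53.5 CPM, with overlapping groups, and was not called (0.24 ± 0.13 SE). B4galt1, the main galactosyltransferase of glycoproteins, was at 269, 263 and 260.3 CPM against 169.5, 178 and 170.4 CPM, without overlap, and fell (−0.61 ± 0.03 SE, edgeR adjusted p = 1.19e-06). B3gnt2, which extends poly-N-acetyllactosamine, was at 123, 124 and 116 CPM against 105, 102 and 104 CPM (−0.22 ± 0.04 SE, edgeR adjusted p = 0.00107), a call lost with library size alone and with FPKM. St3gal6 was at 2.03, 1.99 and 3.03 CPM against 3.51, 3.51 and 3.62 CPM (0.55 ± 0.19 SE, edgeR adjusted p = 0.0362). It shares exon bases with Dcbld2, which had 33.3% as many counts, and its call was lost in DESeq2, with unfiltered FPKM and without 1 of the libraries Mmrn1-low 1, Mmrn1-low 2, Mmrn1-high 1, Mmrn1-high 2 and Mmrn1-high 3 (edgeR adjusted p of St3gal6 0.0647 to 0.099). Among carriers of the ligand, Selplg, which encodes PSGL-1, rose from 176 ± 10.1 to 247 ± 7.71 CPM (0.49 ± 0.05 SE), Spn, which encodes CD43, was lower (−0.26 ± 0.03 SE) and Cd44 was not called (0.06 ± 0.04 SE).

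In N-glycan branching, Mgat5 and Mgat2 fell and Mgat4b rose. Of the Mgat genes, 5 of 11 rows were tested, with 1 higher, 2 lower and 2 not called (median log2 fold change −0.44). Mgat5, which adds the branch that carries long lactosamine chains (chromosome 1, 127205015 to 127488336), was at 481, 473 and 485 CPM against 216, 217 and 204 CPM (−1.18 ± 0.03 SE, edgeR adjusted p = 4.72e-08). Mgat2, which completes the core of every complex chain, was at 208 ± 3.52 and 135 ± 2.05 CPM (−0.63 ± 0.03 SE). Mgat4b, which adds another branch, was at 71.3 ± 3.49 and 87.6 ± 0.428 CPM (0.30 ± 0.05 SE), and its paralogue Mgat4a was not called (−0.12 ± 0.07 SE). Mgat1, which starts branching, varied within groups, at 36.7, 60.6 and 21.3 CPM against 29.1, 23.9 and 33.7 CPM, and was not called (−0.44 ± 0.43 SE). Per length, Mgat5 made up 28.2% ± 1.14 and 18.03% ± 0.679 of the summed Mgat level, and Mgat4b 15.9% ± 0.862 and 28.1% ± 0.123.

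**Figure D4:**
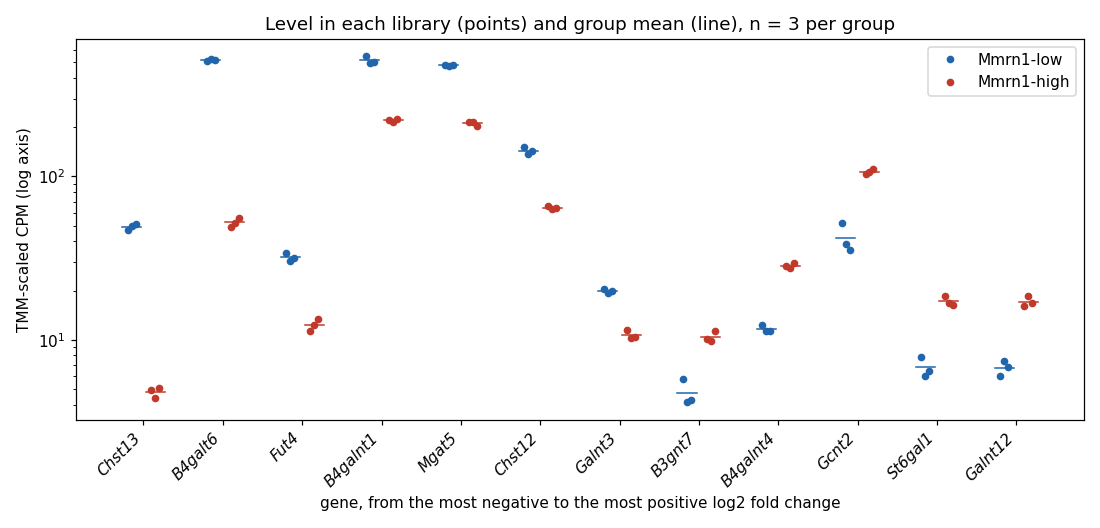
TMM-scaled CPM (vertical log axis) in each library (points) and group mean (lines) of the 12 genes with the largest absolute log2 fold change among called members at a mean of at least 5 CPM; blue is Mmrn1-low and red Mmrn1-high. The groups are separate for all 12, which were chosen by this fold change, with Chst13 and B4galt6 the farthest apart.

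Among galactosyltransferases, 10 of 12 rows were tested, with 2 higher, 4 lower and 4 not called (median log2 fold change −0.21). B4galt4 was lower (−0.57 ± 0.05 SE), like B4galt6 and B4galt1 above. B4galt2 was higher at a low level, 0.524 ± 0.274 against 1.55 ± 0.4997 CPM (1.35 ± 0.43 SE, edgeR adjusted p = 0.0244), but it shares exon bases with Slc6a9, which had 289% as many counts, and its call was lost with unfiltered FPKM and without 1 of the libraries Mmrn1-low 1, Mmrn1-low 2, Mmrn1-high 1 and Mmrn1-high 3 (edgeR adjusted p of B4galt2 0.0595 to 0.0744). The linker of glycosaminoglycans is made by B4galt7, which was lower (−0.30 ± 0.07 SE), a call lost with library size alone and with FPKM, and by B3galt6 (−0.13 ± 0.08 SE) and B3gat3 (−0.07 ± 0.07 SE), which were not called.

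In O-glycan initiation, the widely expressed Galnt1 and Galnt2 were not called. Galnt1 was at 221, 232 and 216 CPM against 223, 223 and 233 CPM (0.02 ± 0.04 SE) and Galnt2 at 174 ± 9.19 and 178 ± 7.53 CPM (0.03 ± 0.05 SE). With library size alone Galnt1 (0.17) and Galnt2 (0.18) were called higher. Of the Galnt genes, 11 of 21 rows were tested, with 6 higher, 3 lower and 2 not called (median log2 fold change 0.49). Galnt6, another abundant enzyme, was at 139.7 ± 1.47 and 205 ± 1.87 CPM and rose (0.55 ± 0.03 SE, edgeR adjusted p = 1.16e-06), making up 23.5% ± 0.562 and 30.1% ± 0.261 of the summed Galnt level per length. Galnt12 was at 6.03, 7.38 and 6.79 CPM against 16.2, 18.4 and 16.7 CPM, without overlap (1.35 ± 0.10 SE, edgeR adjusted p = 1.19e-05). Galnt10 (0.63 ± 0.07 SE) and Galnt11 (0.49 ± 0.06 SE) were higher, as were the sparse Galnt9, at 0.406 ± 0.101 against 1.11 ± 0.0360 CPM (1.46 ± 0.27 SE), and Galnt5 (0.99 ± 0.27 SE), whose call was lost in DESeq2. Galnt3 was lower, at 20.3, 19.2 and 19.9 CPM against 11.4, 10.2 and 10.5 CPM (−0.89 ± 0.08 SE, edgeR adjusted p = 2.51e-05). Galnt7 (−0.26 ± 0.05 SE) and Galnt4 (−0.32 ± 0.06 SE) were lower by less, and the call of Galnt7 was lost with library size alone and with FPKM. Galnt4 shares exon bases with Poc1b, which had 85.1% as many counts, so its value is uncertain.

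Of the 5 Gcnt genes, which branch O-glycans and lactosamine chains, 3 were tested and 2 were higher, with Gcnt1 not called. Gcnt2, which makes the I antigen branch (chromosome 13, 40859754 to 40960892), was at 51.7, 38.7 and 35.5 CPM against 103, 106 and 111 CPM (1.35 ± 0.15 SE, edgeR adjusted p = 4.81e-04). Gcnt4 was higher at a low level, 1.002 ± 0.109 against 2.15 ± 0.586 CPM (1.09 ± 0.25 SE). B4galnt4, which adds N-acetylgalactosamine to the ends of N-glycans, was at 12.2, 11.4 and 11.3 CPM against 28.3, 27.3 and 29.7 CPM (1.29 ± 0.07 SE, edgeR adjusted p = 2.01e-06), opposite to B4galnt1. In chain extension, 7 of 9 rows were tested, with 3 higher, 2 lower and 2 not called (median log2 fold change 0.55). B3gnt7, an enzyme of keratan sulfate chains, was at 5.71, 4.13 and 4.25 CPM against 10.05, 9.77 and 11.3 CPM (1.15 ± 0.14 SE, edgeR adjusted p = 2.17e-04). B3gnt3 (0.92 ± 0.17 SE) and B3gntl1 (0.46 ± 0.08 SE) were higher and B3gnt8 (−0.44 ± 0.10 SE) lower, but B3gntl1 and B3gnt8 share exon bases with Tbcd and Bckdha, which had 644% and 490.0% as many counts. The members not yet given, B3galt5, B4galt3, B3gnt5, B3gnt9, Fut11, St3gal3 and St6galnac6, were not called.

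The genes that supply the enzymes were taken from lists by role, or by symbol for the transporters. The background was the same, with 61.2% called, 30.7% higher and 30.5% lower. Among all genes tested at or above 24.1 CPM, 44.4% were lower and 23.8% higher. Sugar nucleotide and sulfate donor synthesis had 18 lower and 3 higher of 28 tested (median −0.39, 75% called). Papss2, which makes the sulfate donor of the sulfotransferases, fell from 28.8 ± 0.131 to 6.06 ± 0.133 CPM (−2.25 ± 0.07 SE, edgeR adjusted p = 9.60e-08), while its paralogue Papss1 was at 61.9 ± 1.52 and 61.4 ± 0.784 CPM and was not called. Gmppb (−1.28 ± 0.08 SE) and Pgm3 (−0.76 ± 0.06 SE), of GDP-mannose and UDP-N-acetylglucosamine synthesis, fell. Cmas, which activates sialic acid, rose (0.22 ± 0.03 SE), as did Fpgt (0.43 ± 0.15 SE) and Gfpt2 (1.68 ± 0.28 SE). The transporter list holds every gene named Slc35a to Slc35d, the family of nucleotide sugar transporters. What each of them carries, and in which compartment, was not checked. The list had 8 lower and 5 higher of 14 tested (median −0.29, 92.9% called). Slc35c1, the Golgi GDP-fucose transporter (−0.80 ± 0.04 SE), Slc35b1 (−0.95 ± 0.05 SE) and Slc35a3 (−0.54 ± 0.04 SE) fell. Slc35d3 (1.97 ± 0.15 SE), Slc35b4 (0.33 ± 0.04 SE) and Slc35b3 (0.49 ± 0.14 SE) rose.

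Golgi mannosidases and core O-glycan genes had 7 lower and 1 higher of 8 tested (median −0.20, 100% called). Man2a1, the mannosidase that trims before Mgat2 acts, fell from 184 ± 0.713 to 88.2 ± 1.43 CPM (−1.06 ± 0.03 SE), and Man2a2, which does the same trimming, rose from 162 ± 2.89 to 234 ± 13.7 CPM (0.53 ± 0.04 SE). Man1c1 (−0.43 ± 0.05 SE) and Man1b1 (−0.18 ± 0.04 SE) fell. Golgi organisation genes had 14 lower and 1 higher of 23 tested (median −0.29, 65.2% called), with Tmem165 (−1.04 ± 0.04 SE), which supplies the Golgi with manganese, Gorasp2 (−1.03 ± 0.04 SE) and Uso1 (−0.74 ± 0.04 SE) lower and Golm1 (0.83 ± 0.04 SE) higher.

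Glycosaminoglycan chain genes had 7 lower and 11 higher of 23 tested (median 0.23, 78.3% called). Csgalnact2, which starts the chondroitin chain, fell from 310.3 ± 1.87 to 157 ± 1.23 CPM (−0.98 ± 0.03 SE), and its paralogue Csgalnact1 rose from 7.85 ± 0.242 to 20.5 ± 0.467 CPM (1.38 ± 0.07 SE). Xylt1 (−0.45 ± 0.05 SE) and Fam20b (−0.62 ± 0.04 SE), which act on the linker, fell. Ndst1 (0.73 ± 0.03 SE) and Extl3 (0.53 ± 0.05 SE), of heparan sulfate, rose. Glycan removal genes had 6 lower and 3 higher of 11 tested (median −0.31, 81.8% called). The lysosomal sialidase Neu1 fell from 154 ± 2.62 to 39.3 ± 0.873 CPM (−1.97 ± 0.04 SE), Arsb, which removes the sulfate that Chst11 to Chst13 add, from 297 ± 5.94 to 91.8 ± 3.90 CPM (−1.70 ± 0.04 SE), and Hexa fell as well (−0.71 ± 0.03 SE). Neu3, the plasma membrane sialidase, rose (0.87 ± 0.16 SE). Glycan carriers and lectins had 6 lower and 10 higher of 21 tested (median 0.30, 76.2% called). Cd34 (1.26 ± 0.03 SE) and Cd33 (1.54 ± 0.08 SE) were higher, and Siglecg (−1.57 ± 0.09 SE), Cd24a (−0.51 ± 0.03 SE) and the macrophage lectin Siglec1 (−3.17 ± 0.29 SE) lower. The tissue macrophage markers were lower too, and their part in the value of Siglec1 was not tested.

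**Figure D5:**
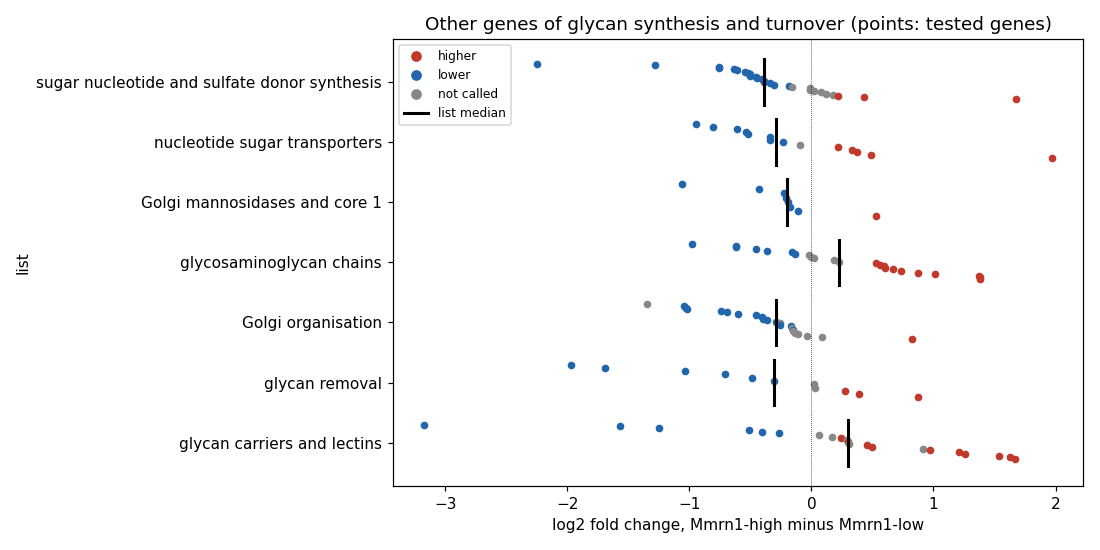
Log2 fold change (horizontal axis, Mmrn1-high minus Mmrn1-low) of the tested genes of 7 lists of glycan synthesis and turnover (points; red higher, blue lower, grey not called) with each list's median (black line). The medians lie below 0 for donor synthesis, transporters, mannosidases, Golgi organisation and removal, and at 0.23 and 0.30 for glycosaminoglycan chains and for carriers and lectins.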

How the data were processed

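RNA selected by poly-A was sequenced, per the labels' protocols, as stranded paired-end libraries. The authors deposited raw read counts and FPKM per gene for each library, per the file headers. In the submitters' processing notes CASAVA (1.8), HISAT2, StringTie and edgeR are named, with the build GRCm38 and no roles, and no source used here says whether counting used strand. For all 65 tested members the deposited FPKM implied a gene length within 0.1% of the sum of all distinct GENCODE M21 exons, overlapping ones counted repeatedly, up to 3.08 times the merged exon length. Levels of different genes are therefore compared as TMM-scaled CPM per kb of merged exons.

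The counts were fitted in edgeR (4.0.16, R 4.3.3) with filterByExpr, TMM factors, a robust quasi-likelihood F test and group as the only term, and adjusted by Benjamini-Hochberg over 15419 genes. SE is the absolute log2 fold change over the root of F. The procedure was tested on simulated data with few changed genes, balanced in direction, and a common dispersion for all genes. In the real data 61.2% of genes were called, so that test does not bear on the choice of scaling. In these libraries 3 counts are worth 0.0925 to 0.245 CPM. Alternatives used DESeq2 (1.42.0) and limma (3.58.1), the latter also on log2(FPKM + 1), a scale that understates changes of low genes. The FPKM fits used no TMM factors. Exon bases are shared with another annotated gene by 27 tested members.

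The members and lists were chosen with earlier results of these data known. By rule, values are given for up to 4 members per role group with the smallest adjusted p, the group's most abundant member by FPKM, called members changed at least 1 log2 unit, enzymes of selectin ligand synthesis, and up to 3 genes per direction of each other list, some of which are not reported here. St3gal5, B3galt4, St8sia4, St6galnac3, St6galnac4, St8sia6, Mgat1, B4galt7, B3galt6, Chst1, Chst3, Chst14, Galnt4, Galnt5, Galnt7, Galnt10, B3gnt8, Papss1, Selplg, Spn, Cd44 and the cell type markers named were added after their values had been seen. So were the enzyme sets whose levels were summed and the promoters shown, which replace a planned comparison of protein sequences that was not made. RefSeq promoters matched 82 of 108 symbols. Python 3.11.15, pandas 2.3.3 and matplotlib 3.10.9 were used.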

Additional observations from a re-analysis of the deposited data

How the results depend on the processing

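The counts of 29 higher and 17 lower members stayed within 1.5 times of these values under DESeq2, factors by relative log expression, no filter, the 5 CPM filter, library size alone, limma voom, the replicate block, the 3 FPKM settings and an adjusted p under 0.01. With a library left out they were 27 to 30 and 16 to 18. The share of all genes called differed between settings, so the counts alone do not show stability against it. It was 61.2% in the main fit, 55.5 to 57.2% with a library left out, 30.9% with DESeq2 and 34.6% with no filter. DESeq2 and no filter tested 89 members. Requiring a change of at least 1 log2 unit left 11 and 6, against 11.3% and 4.9% of all genes tested. Members that share no exon bases, an alternative chosen after seeing the data, gave 14 and 8 of 38 tested. Of all genes tested, 30.7% were higher and 30.5% lower. Where an alternative gave a value, the 46 called members kept their direction. DESeq2 lost the calls of Galnt5, St3gal6 and St6galnac5, library size alone those of Galnt7, B3gnt2, B4galt7 and St3gal4, filtered FPKM these 4 and B3gnt8, and unfiltered FPKM these 5, B4galt2 and St3gal6. The median of 0.28 was 0.431 with library size alone, 0.127 with no filter, 0.0670 with the 5 CPM filter, 0.0775 with DESeq2, 0.117 and 0.141 with filtered FPKM (pseudocounts 1 and 0.1), 0.0650 with unfiltered FPKM, 0.0685 in members that share no exon bases, and 0.262 to 0.361 with a library left out. Over all genes the median was 0.01 in the main fit and 0.154 with library size alone. It was 0.0550 with no filter, 0.00227 with the 5 CPM filter and 0.0399 with DESeq2. With filtered FPKM it was 0.0814 and 0.0981, with unfiltered FPKM 0.0346, and with a library left out 0.00735 to 0.0233. Except with library size alone, these settings test another set of members or another unit, and the cause was not tested. The FPKM settings also carry no TMM factors. They shifted all genes by a median of 0.142 and 0.147 (filtered) and 0.134 (unfiltered), against 0.148 with library size alone. On scaling they therefore repeat the change made with library size alone and are not a separate check. Of the calls over all genes 50.2% were higher, against 66% with library size alone and 61.2% with filtered FPKM.

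Signs reversed for 6 named genes that were not called. With library size alone, filtered FPKM with pseudocounts of 1 and 0.1, and unfiltered FPKM, B3galt6 was at 0.0176, 0.0159, 0.0185 and 0.0159, B3gat3 at 0.0740, 0.0677, 0.0734 and 0.0677, Mgat4a at 0.0237, 0.0195, 0.0247 and 0.0195 and St8sia4 at 0.142, 0.119, 0.140 and 0.119. St8sia4 was also at 0.0101 with no filter and 0.0440 with the 5 CPM filter. With a library left out, St8sia4 ranged from −0.0141 to 0.0174, Chst14 from −0.0697 to 0.0870 and Galnt1 from −9.37e-04 to 0.0495. Chst14 was at −3.68e-04 with the replicate block.

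Same-numbered libraries correlated in their deviations from the group means at 0.0426, −0.0785 and 0.0286, and not every library correlated best with its own number, so the numbers were not taken as pairs. With the replicate block 30 members were higher and 17 lower, with a median of 0.24, and the call of St3gal4 was lost. Of all genes 57.9% were called with this block, at a median of 0.00408. Few counts limit St8sia1, St6galnac5, B4galt2 and Galnt9 in Mmrn1-low libraries.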
